A study of Mus musculus with 12 samples.

Results

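The protein components of the cytosolic ribosome were followed in mouse kidney cortex through 168 cDNA probes for 70 genes, of 15600 probes and 6786 genes with a single symbol on the array. A probe belonged to the set when the array's annotation gave it a single symbol of the Rpl, Rps, Rplp or Rpsa type, without the S6 kinases (Rps6k) and without pseudogene symbols. This rule uses no measured value, but the spot layout that ties the annotation to the spots had been derived from these data, so the membership is not independent of them. Another 15 probes listed several genes with a ribosomal protein among them and were left out, which removed Rplp0 and Rps28 altogether. The 6 cortex samples were 3 labelled menopausal (Menopausal 1, 2 and 3), whose treatment is given as VCD, and 3 labelled control (Control 1, 2 and 3). VCD is the usual abbreviation of vinylcyclohexene diepoxide, which destroys the small follicles of the rodent ovary and leaves the rest of the organ in place; the labels do not spell it out. The labels name neither strain, age nor sex, and do not say whether a sample was 1 mouse or a pool. The p-values between the groups therefore speak only of the spread between these 6 samples, part of which may be technical. Those for differences within a group rest on the error between arrays, which is technical. Each sample was hybridised on 4 of the 12 two-colour arrays, 2 with each dye. A least-squares fit turned the 12 ratios of each probe into 1 value per sample, written here in log2 units with the average over all 6 samples set to 0, and differences are menopausal minus control.

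Cytosolic ribosomal proteins assemble with ribosomal RNA into a small subunit, which decodes the mRNA, and a large subunit, which joins amino acids and holds the exit tunnel for the new chain. Most are present once per ribosome, and their mRNAs are among the most abundant of any cell. These mRNAs begin with a run of pyrimidines, the 5′ terminal oligopyrimidine or TOP sequence, through which mTORC1 signalling controls their translation together. In the kidney cortex the proximal tubule makes up most of the tissue, and growth of its cells without division is known to go with more ribosomes per cell. In tissue RNA, fewer cells of a type and less RNA per cell cannot be told apart.

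The start of transcription was available from RefSeq, on build GRCm38.p6, for 55 of the 69 genes with a measurable probe, matched by gene symbol. For the 9 of them with more than 1 annotated start, and likewise for all other genes, the start with the longest run was taken. The 30 bases centred on the annotated start were searched for an unbroken run of at least 8 pyrimidines, any mix of C and T. Such a run was present in 26 genes (47.3%), against 13.9% of all 27025 genes in the same table. On the other strand, where it reads as a run of purines, it was present in 3 of the 55 genes (5.45%), against 15.3% of all genes. The windows of 9 genes described below are shown, printed from 5′ to 3′ on the coding strand with the longest pyrimidine run in capitals.
Rps6 (chr4:86857353-86857382, minus strand): aagcggaagtcgggCCTCTTTTTCgtgacg
Rpl4 (chr9:64173372-64173401, plus strand): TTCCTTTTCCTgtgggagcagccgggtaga
Rps9 (chr7:3704026-3704055, plus strand): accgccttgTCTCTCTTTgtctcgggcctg
Rplp2 (chr7:141447636-141447665, plus strand): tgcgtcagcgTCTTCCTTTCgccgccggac
Rpl5 (chr5:107900513-107900542, plus strand): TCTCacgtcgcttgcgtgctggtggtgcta
Rps21 (chr2:180257364-180257393, plus strand): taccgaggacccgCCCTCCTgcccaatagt
Rps2 (chr17:24720048-24720077, plus strand): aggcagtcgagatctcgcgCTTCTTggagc
Rpsa (chr9:120127751-120127780, plus strand): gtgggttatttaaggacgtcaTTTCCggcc
Rpl37a (chr1:72711245-72711274, plus strand): TTCCgctcgccggtctaaaaccgcgcatgc
The first 4 windows hold runs of 9 to 11 pyrimidines, and the other 5 hold none of 8 or more, the longest being 7 for Rps21, which has 2 annotated starts, 6 for Rps2, 5 for Rpsa and 4 for Rpl5 and Rpl37a. The gene ID that the array annotation gives for Rpl5 is not in the RefSeq table, and its window rests on the symbol alone. The runs of Rpl4, Rpl5 and Rpl37a begin at the first base of the window, so they may be longer than shown. That of Rpl4 ends before the annotated start. A window without a long run says only that these letters are absent around the annotated start. Genes with such a run were higher in menopausal samples in 19 cases and lower in 7, with a median difference of 0.028, and genes without one were higher in 18 and lower in 11, with a median of 0.051.

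Ribosomal protein probes were bright. Of the 168 probes, 161 passed the filter on dim probes (95.8%), against 49.3% of all probes, and they covered 69 genes, leaving only Rpl39l unmeasured. Each group had 12 channel measurements of a probe, and the filter required 6 of them, in either group, to lie more than 2 SDs of the local background above it. In both groups 160 of the 161 passed, and a single Rpl7 probe passed through the menopausal samples alone. The kept members lay between the 50.4th and 99.5th percentile of brightness, with a median at the 93.0th, and no member spot was saturated. Brightness of these probes was among the properties from which the spot layout, and so every gene name, had been derived, and it is therefore no independent observation. The brightest probes by gene were those for Rpl10, Rpl30, Rpl9, Rpl7, Rpl41, Rps4x, Rps3a1, Rpl5, Rpl6 and Rplp1, and the dimmest kept were those for Rps12, Rpl13, Rpl29, Rpl21 and Rpl22l1. The probes are cDNA clones, which can also hybridise with transcripts of paralogs and of the many processed pseudogenes of this family.

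No ribosomal protein probe differed between menopausal and control samples past the threshold. Of 7683 probes tested with limma, 0 reached an adjusted p of 0.05 (0%), the smallest adjusted p being 0.924, and 375 had an unadjusted p under 0.05. Among the 161 ribosomal protein probes, 105 were higher in menopausal samples and 56 were lower, a share of 65.2% higher against 50.4% of all kept probes. The median difference over the members was 0.055, against 0.0012 over all kept probes, and single probes ran from -0.31 for Rps21 to 0.41 for Rpl5. The standard error of a member's difference was 0.13 at the median, ranging from 0.068 to 0.29. An unadjusted p under 0.05 in the higher direction was found for 7 members (4.35%), against 2.54% of all probes, and in the lower direction for 0 members, against 2.34%. This balance depended on single samples: it was 3 higher and 8 lower without Menopausal 1, 16 and 0 without Menopausal 2, 0 and 0 without Menopausal 3, 9 and 1 without Control 1, 13 and 0 without Control 2, and 2 and 3 without Control 3. In 13 members (8.07%), from 10 genes, all 3 menopausal values lay above all 3 control values, a pattern shown by 6.17% of all probes, and the reverse was seen in 0 members against 5.86% of all probes.

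The spread between samples of the same group was larger than the shift between groups. The median over the 161 members was 0.13 in Menopausal 1, -0.11 in Menopausal 2 and 0.051 in Menopausal 3, against -0.10 in Control 1, 0.094 in Control 2 and -0.073 in Control 3. Menopausal 1 and Control 2 were thus the samples with the highest member medians, and Menopausal 2 and Control 1 those with the lowest, so that the groups overlapped. With median centring instead, Menopausal 3 was the highest, at 0.38. The value lay above 0 for 88.2%, 14.3% and 63.4% of the members in Menopausal 1, 2 and 3, and for 15.5%, 77.0% and 21.1% in Control 1, 2 and 3. Over all kept probes that share stayed between 46.3% and 53.8% in each of the 6 samples, which the normalization favours by centring the ratios near 0. Most members thus lay on the same side of 0 in each sample except Menopausal 3, where the share was nearer to that of all kept probes. The median difference was -0.0094 without Control 3, -0.0063 without Menopausal 1 and 0.15 without Control 2, so its sign rested on single samples.

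**Figure D1:**
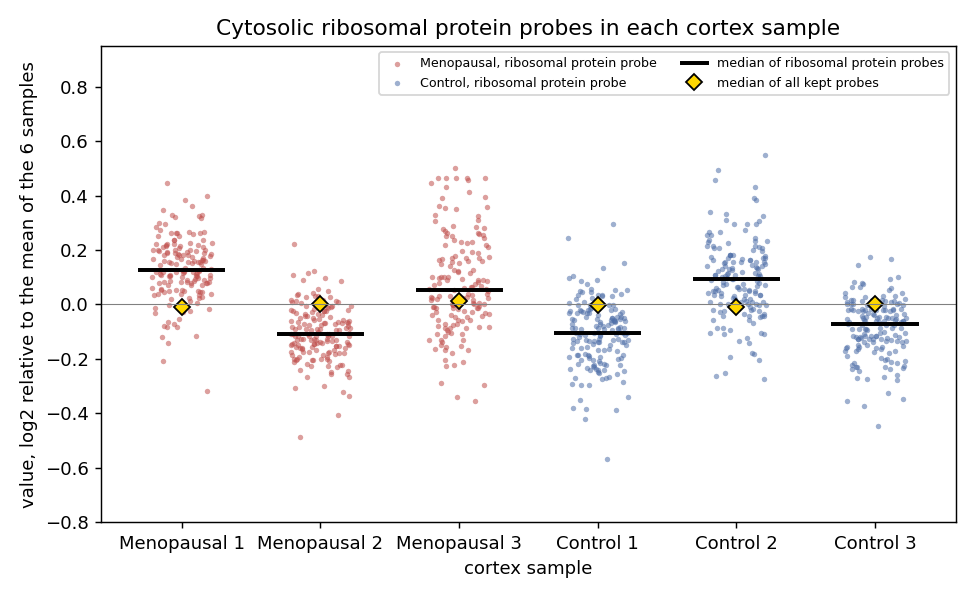
Value of each of the 161 ribosomal protein probes (y axis, log2, average over the samples set to 0) in each cortex sample (x axis), with red points for menopausal and blue points for control samples. Black bars are the medians of these probes, which run from -0.11 in Menopausal 2 to 0.13 in Menopausal 1. Yellow diamonds are the medians of all kept probes, which the normalization draws towards 0 and which stay between -0.010 and 0.013.

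The order of the samples was shared by most members. Menopausal 2 had the lowest of the 3 menopausal values for 130 of 161 ribosomal protein probes (80.7%), against 30.8% of all kept probes. Control 2 had the highest of the 3 control values for 130 members as well (80.7%), against 35.8% of all kept probes. Both held for 110 members (68.3%) and for 18.4% of all kept probes. Other probes as bright as the middle range of the members numbered 1630. Their medians were -0.012, 0.020 and 0.0076 in Menopausal 1, 2 and 3 and 0.0098, -0.029 and 0.0040 in Control 1, 2 and 3. The normalization centres the ratios near 0 at each brightness and so draws these medians towards 0. They therefore cannot show whether brightness had a part in the order of the samples, which was not tested. The median range of a member was 0.32 among the menopausal samples and 0.26 among the control samples, against 0.20 and 0.18 over all kept probes. Tested probe by probe against the error between arrays with limma's moderated F statistic, 0 members differed among the menopausal samples, where 29 of 7682 probes did (0.378%), and 0 among the control samples, where 83 did (1.08%). An unadjusted p under 0.05 was found for 32 members (19.9%) among the menopausal samples, against 13.1% of all probes, and for 21 (13.0%) among the control samples, against 13.7%. In Control 2, 101 of the 161 members exceeded background in every measurement, against 125 to 149 in the other samples, and the part of this in its high values was not tested.

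**Figure D2:**
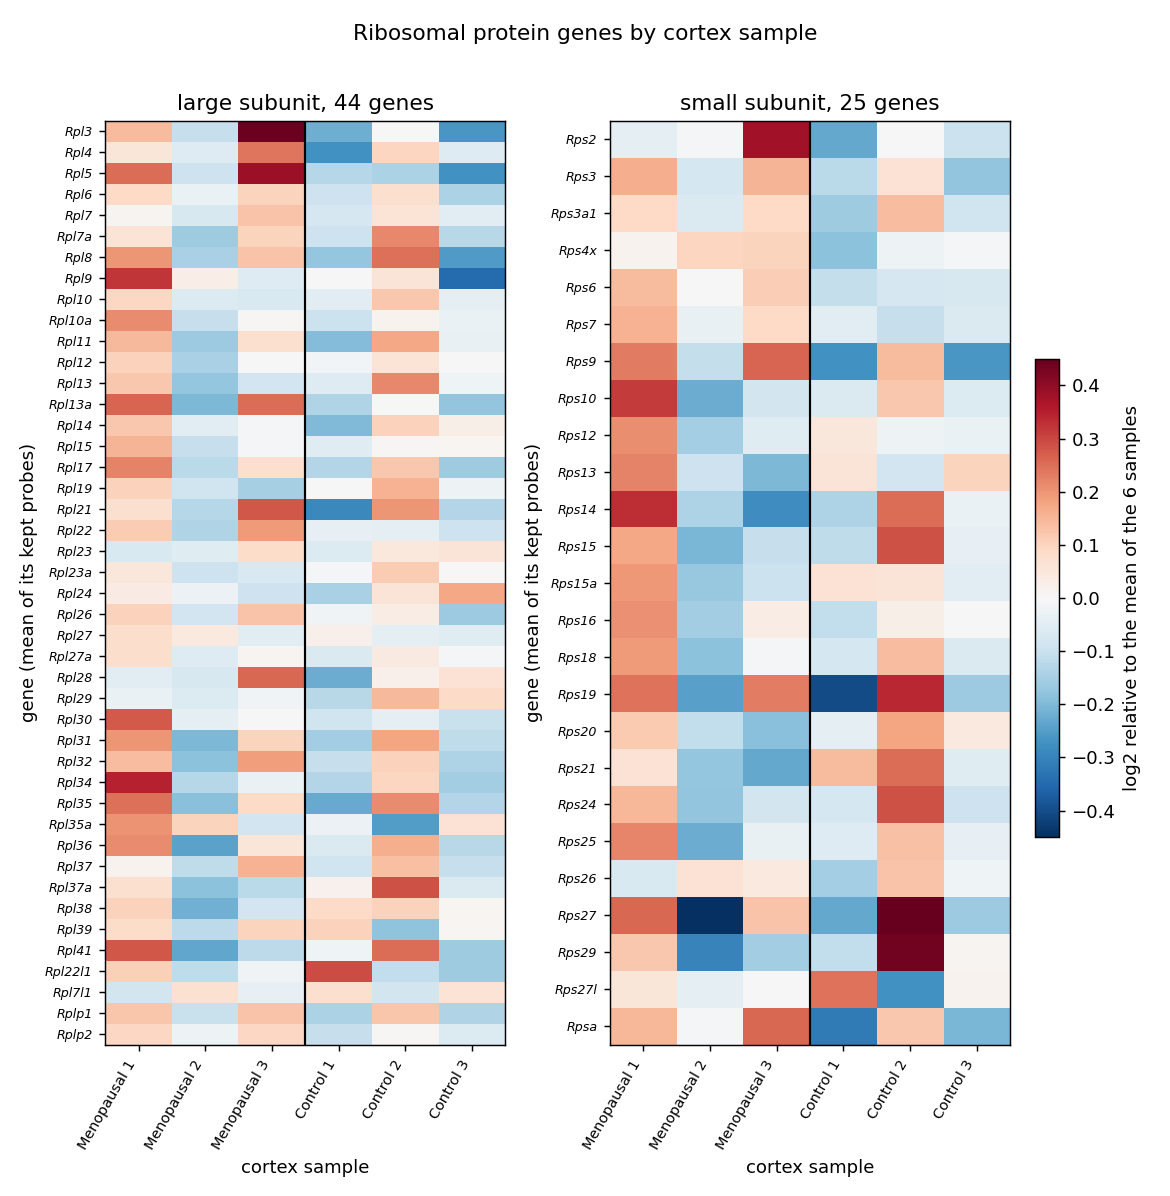
Heat map of 44 large-subunit and 25 small-subunit genes (rows, ordered by the number in the symbol) in the 6 cortex samples (columns, menopausal left of control), coloured by the mean log2 value of the gene's probes. The columns of Menopausal 1 and Control 2 are mostly red and that of Menopausal 2 mostly blue, while Menopausal 3 is red at the top of both panels and mixed or blue lower down.

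In the small subunit, 34 of 58 probes were higher in menopausal samples, with a median difference of 0.034. By the brightest probe of each of its 25 genes, 13 were higher and 12 lower. The smallest p of any member belonged to Rps6, the subunit protein that S6 kinases phosphorylate downstream of mTORC1. Its first probe read 0.13, -0.016 and 0.22 in the menopausal samples, against -0.11, -0.057 and -0.16 in the control samples. The groups did not overlap, and the difference was 0.22 ± 0.075 (SE from limma, adjusted p = 0.924). The other probes of Rps6, both brighter, differed by 0.12 and 0.17. At the brightest of the 3 the groups overlapped, with Menopausal 2 at -0.024 below Control 3 at -0.0072. The mean over the 3 Rps6 probes was 0.085 ± 0.073 in menopausal and -0.085 ± 0.021 in control samples (SD, n = 3 each).

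Rpsa, which sits near the mRNA exit of the small subunit and also gives rise to a laminin receptor at the cell surface, had 6 kept probes. The mean over them was 0.15 in Menopausal 1, -0.0050 in Menopausal 2 and 0.26 in Menopausal 3, against -0.32 in Control 1, 0.12 in Control 2 and -0.20 in Control 3. Control 2 lay above Menopausal 2, so the groups overlapped. Of its probes 5 were higher in menopausal samples by 0.27 to 0.39, and the dimmest of the 6 differed by -0.050. Rps2 and Rps3 line the entry of the mRNA channel. The Rps2 mean was -0.041, -0.0078 and 0.38 in Menopausal 1, 2 and 3, against -0.23, -0.0011 and -0.097 in Control 1, 2 and 3, a difference of 0.22 that became -0.042 without Menopausal 3. Rps3 read 0.16, -0.080 and 0.15 in the menopausal samples, against -0.12, 0.066 and -0.18 in the control samples, a difference of 0.16 with overlapping groups. Rps9, a small-subunit protein that binds the ribosomal RNA early in assembly, differed by 0.21 and 0.31 at its 2 probes, again with Control 2 above Menopausal 2.

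The lowest difference in the small subunit was that of Rps21, a small protein needed in yeast for maturation of the small subunit's RNA. Its first probe read 0.091, -0.20 and -0.35 in the menopausal samples, against 0.15, 0.33 and -0.020 in the control samples, a difference of -0.31 ± 0.15 (SE from limma, adjusted p = 0.924). Menopausal 1 lay above Control 3, so the groups overlapped, and the other probe differed by -0.14. The mean difference over both probes was -0.23, and it was -0.0059 without Control 2 and -0.027 without Menopausal 3. Rps29 read 0.12, -0.30 and -0.16 in the menopausal samples, against -0.11, 0.43 and 0.014 in the control samples, and here Control 2 stood far above the rest. Of the 5 probes of Rps15 the differences ran from -0.16 to 0.053, and those of the 2 Rps20 probes were -0.13 and -0.11. Rps19, whose human counterpart is the gene most often mutated in Diamond-Blackfan anaemia, had the widest range among control samples. One of its probes read 0.24, -0.41 and 0.40 in the menopausal samples, against -0.57, 0.55 and -0.21 in the control samples. The difference of 0.15 at that probe was small beside this spread.

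In the large subunit, 71 of 103 probes were higher in menopausal samples, with a median difference of 0.058. By the brightest probe of each of its 44 genes, 30 were higher and 14 lower. The largest gene mean was that of Rpl5, which carries the 5S ribosomal RNA into the subunit together with Rpl11 and, when free, binds the p53 regulator Mdm2. The mean over its 5 probes was 0.25 in Menopausal 1, -0.095 in Menopausal 2 and 0.39 in Menopausal 3, against -0.13 in Control 1, -0.14 in Control 2 and -0.27 in Control 3. In this mean the groups did not overlap. At the brightest probe they did, with Menopausal 2 at -0.061 below Control 1 at -0.052, and the other Rpl5 probes were divided in this respect. Each of the 5 probes was higher in menopausal samples, by 0.30 to 0.41, with adjusted p = 0.924 for each. Its partner Rpl11 differed by 0.039 ± 0.14 (SE from limma).

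Rpl3, which reaches towards the peptidyl transferase centre, had 7 kept probes with differences of 0.27 to 0.36. Their mean was 0.14, -0.10 and 0.44 in Menopausal 1, 2 and 3, against -0.22, 0.0028 and -0.26 in Control 1, 2 and 3, and Menopausal 2 lay below Control 2. Rpl4, which lines the exit tunnel, had 8 kept probes, all higher in menopausal samples, by 0.064 to 0.23. Rpl17 at the tunnel exit disagreed between its probes. One read 0.22, 0.013 and 0.23 in the menopausal samples, against -0.00081, -0.26 and -0.20 in the control samples, a difference of 0.31, while the other probes differed by 0.043 and -0.0046. On those other probes Control 2 was the highest sample, whereas on the first it was the lowest. Rpl22, which mice can live without and which has a paralog in Rpl22l1, differed by 0.023 and 0.21 at its 2 probes, and Rpl22l1 by -0.017.

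The lowest difference of a gene in the large subunit was that of Rpl37a. Its 3 probes differed by -0.20, -0.17 and -0.11, and their mean was 0.070, -0.19 and -0.12 in the menopausal samples, against 0.019, 0.28 and -0.066 in the control samples. Control 2 was the highest sample at each of them, and without it the mean difference was 0.13. Rpl38, reported in mouse embryos to take part in the translation of Hox mRNAs, differed by -0.13 ± 0.10 and Rpl29 by -0.092 at the first of its probes. The proteins of the lateral stalk, which recruits elongation factors, were represented by Rplp1 and Rplp2. Rplp2 read 0.092, -0.022 and 0.092 in the menopausal samples, against -0.10, 0.0036 and -0.061 in the control samples, a difference of 0.11 ± 0.085. The 3 probes of Rplp1 differed by 0.083 to 0.14, with adjusted p = 0.954 or above. At the brightest probe of the family, one for Rpl10, which joins the large subunit late, the difference was -0.093 ± 0.16.

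Probes of the same gene mostly pointed the same way. Of the 43 genes with at least 2 kept probes, 31 had all their probes on one side, 21 of them higher in menopausal samples and 10 lower. The other 12 had probes of opposite sign, among them Rpl7, Rpl10, Rpl17, Rpl31, Rpsa and Rps15. The SD between probes of a gene was 0.071, against 0.12 between gene means, and the median gap between the extreme probes of a gene was 0.091. No such share is given here for other genes, so the 31 of 43 stand without a baseline. Nor were the probes of a gene independent of each other. In 17 genes, 25 neighbouring pairs of probes carried clone accession numbers at most 3 apart, and every probe was read on the same 12 arrays.

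**Figure D3:**
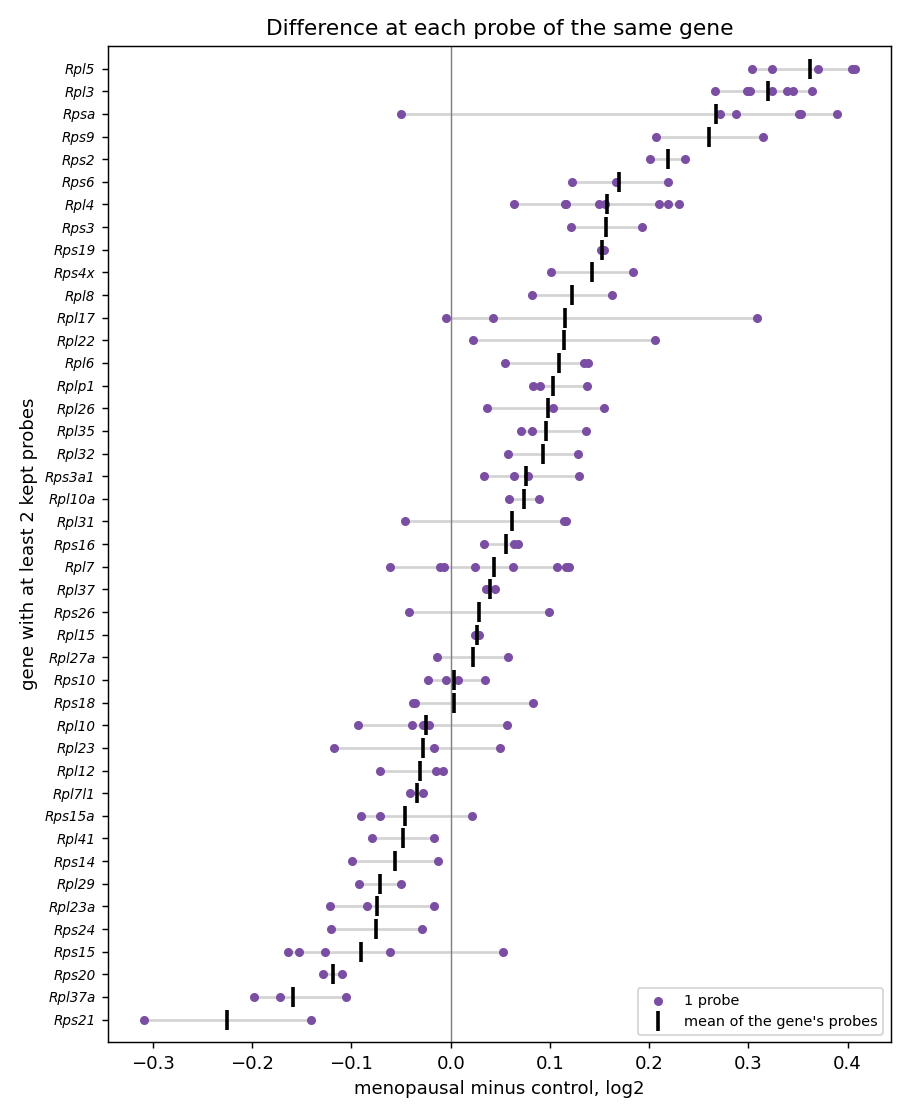
Difference between menopausal and control samples (x axis, log2) at each kept probe (purple points) of the 43 genes with at least 2 kept probes (y axis, ordered by their mean, black ticks). Rpl5 and Rpl3 lie at the top with all probes between 0.27 and 0.41, Rps21 lies at the bottom, and 1 probe each of Rpsa and Rpl17 stands apart from the others of its gene.

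The difference changed with the number in the gene symbol, a pattern that was looked at after the values had been seen. The numbers were given to the proteins roughly in order of decreasing size. Among the 18 genes numbered up to 10, 17 had a higher mean in menopausal samples (median difference 0.14). Among the 45 genes with higher numbers 25 did (median difference 0.018). The rank correlation of the number with the difference was -0.32 over 40 large-subunit genes and -0.70 over 23 small-subunit genes, across genes that share the same 6 samples and are not replicates. The pattern depended on single samples. In Menopausal 3 the genes numbered up to 10 had a median of 0.11, against -0.0045 for those with higher numbers, and in Control 2 the medians were 0.064 and 0.12. Without Menopausal 3 the correlations were -0.0094 for the large and -0.19 for the small subunit, and without Control 2 they were -0.082 and -0.26. The number was also correlated with brightness, at -0.43 over the 63 numbered genes, and brightness with the difference at 0.37, while over all kept probes brightness and difference were correlated at -0.026. That last value is drawn towards 0 by the normalization, which centres the ratios at each brightness. The part of brightness or of transcript length in the pattern was not tested.

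**Figure D4:**
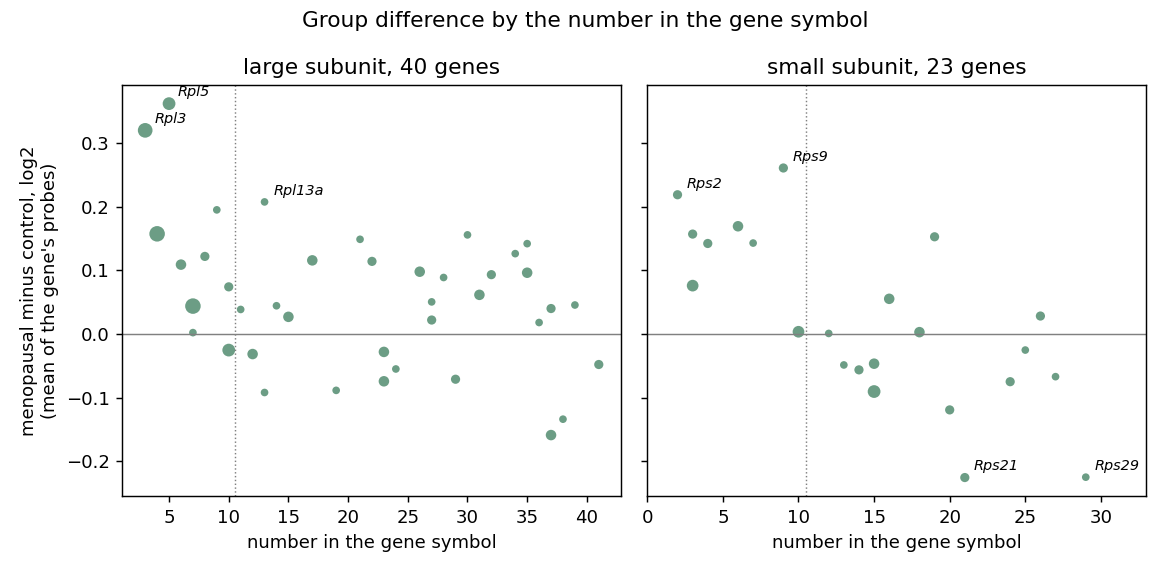
Mean difference of each gene's probes between menopausal and control samples (y axis, log2) against the number in the gene symbol (x axis) for 40 large-subunit genes (left) and 23 small-subunit genes (right), with point area growing with the number of probes and a dotted line after number 10. In the small subunit all 8 genes up to number 10 lie at or above 0, and Rps21 and Rps29 lie lowest.

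Genes of related function gave no call either. Of 16 measured genes for other TOP mRNAs, mostly translation factors, 9 were higher in menopausal samples and 7 lower, with a median difference of 0.048. The smallest p among them belonged to Eif3e, a subunit of initiation factor eIF3, at 0.17 ± 0.12, and Hnrnpa1, a splicing regulator, at 0.19 ± 0.15 (SE from limma). Of 23 measured ribosome biogenesis genes 17 were higher and 6 lower, and their median difference was 0.032. They were led by Polr1c, a shared subunit of RNA polymerases I and III, at 0.20 ± 0.096, and by Rrp1, a nucleolar assembly factor, at 0.20 ± 0.11. Of 12 measured mTORC1 pathway genes 7 were higher and 5 lower, and their median difference was 0.017. Lamtor1, which anchors mTORC1 signalling to the lysosome, read 0.0091, -0.061 and -0.30 in the menopausal samples, against 0.046, 0.26 and 0.046 in the control samples, and Akt2 differed by -0.14. Fau, a ribosomal gene outside the symbol rule, differed by -0.12 and, as for 80.7% of the ribosomal protein probes, Control 2 was the highest of its control samples, at 0.40. The adjusted p was 0.924 or above for each gene of these lists.

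Mitochondrial ribosomal proteins, which serve a separate ribosome, had another order of the sample medians. Of their 41 kept probes 32 were higher in menopausal samples (78.0%) and 9 lower, with a median difference of 0.082. In the higher direction 8 (19.5%) did not overlap, against 6.17% of all kept probes. In the lower direction 1 of the 41 did not overlap, against 5.86% of all kept probes. Their medians were 0.065, 0.022 and 0.043 in the menopausal samples, against -0.031, -0.016 and -0.066 in the control samples, so that, unlike the cytosolic medians, those of the groups did not overlap. Menopausal 2 was the lowest menopausal sample for 43.9% of the 41 probes, against 30.8% of all kept probes. Control 2 was the highest control sample for 53.7%, against 35.8% of all kept probes. Both held for 12 of the 41 (29.3%), against 110 of the 161 cytosolic probes (68.3%) and 18.4% of all kept probes. Whether the sets differ was not tested, since both were chosen with results of these data known. The mitochondrial genes of smallest p were Mrpl30 at 0.20 ± 0.060 and Mrps10 at 0.23 ± 0.072 (SE, adjusted p = 0.924 by limma for both). Both were dim. Mrpl30 exceeded background in 5 of 12 menopausal and 6 of 12 control measurements, and Mrps10 in 7 and 8.

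Markers of the cell types of the cortex were sparsely represented on the array, and none was called between the groups. The proximal tubule genes Gatm, Miox and Lrp2 exceeded background in 12 of 12 menopausal measurements each and in 10, 12 and 12 of 12 control measurements, and their median value was -0.13, 0.18 and -0.068 in the menopausal samples, against 0.12, -0.12 and 0.036 in the control samples. Gatm and Lrp2 lay below 0 in Menopausal 1 and Control 2, where the ribosomal proteins were high, and above 0 in Menopausal 2 and Control 1, where these were low. Miox did not follow that order in full, at 0.031, 0.18 and -0.068 in the menopausal samples, against 0.027, 0.0079 and -0.18 in the control samples. The part of cell composition in the ribosomal values was not tested. Of 12 proximal tubule markers listed only these 3 had a kept probe. The haemoglobin gene Hbb-b1, a sign of blood in the tissue, read 0.72, 0.056 and -0.56 in the menopausal samples, against -0.17, -0.77 and 0.73 in the control samples, and differed among the menopausal samples (adjusted p = 0.012) and among the control samples (adjusted p = 0.0013 by limma). Hbb-b1 was high in Menopausal 1, as the ribosomal proteins were, and lowest in Control 2, where these were high. The other kept blood marker, Alas2, read 0.11, 0.0024 and -0.20 in the menopausal samples, against -0.15, -0.059 and 0.29 in the control samples. It was lowest in Menopausal 3, and its group difference was -0.057, against 0.14 for Hbb-b1. Markers of other tubule segments, glomerulus, endothelium and immune cells rested on 1 kept gene each, those of adrenal and adipose tissue on 2 (1 higher and 1 lower in menopausal samples), those of dividing cells on 4, of which 0 were higher, and those of stroma on none.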

How the data were processed

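Two-colour cDNA arrays compared kidney cortex RNA of 6 samples, 3 per group. Per the labels' protocols, total RNA was amplified as antisense RNA, copied with amino allyl dUTP and coupled to Alexa Fluor dyes. The authors deposited raw spot and local background intensity values for both channels of each array, per the file headers (image software: not given in the sources used here). They also deposited a value table of log2 ratios normalized in a way the labels do not state.

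With limma 3.58.1 in R 4.3.3, spot medians were background-corrected by normexp (offset 50), log2 ratios of Alexa Fluor 647 over Alexa Fluor 546 were normalized by print-tip loess in 48 blocks, flagged spots were left out and the 2 copies of a probe were averaged. Print-tip loess was used because, with global loess, position on the slide accounted for 0.316 of the variance of the group difference, against 0.00505. Fitting a dye effect and 6 sample effects by least squares gave the sample values, which limma compared 3 against 3 (intensity trend, Benjamini-Hochberg adjustment, threshold 0.05). Differences within groups were tested with limma's moderated F on the array ratios, where the error has 6 degrees of freedom and is technical. Per channel, 16.3% to 76.4% of probes, by the mean of their 2 copies, exceeded background, which with 3 samples per group limits the precision.

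Of the value table's 12 columns, whose rows followed the scanner's spot numbers, 0 were closest to the array of their own label, with correlations from -0.30 to 0.14. Each was closest to another array at 0.43 to 0.92 in size, all negative. The sample codes inside the scanner files matched the labels, so those files were used. The table's column medians ran from -0.072 to 0.10, and its scale and direction stay unknown. Correlations between same-numbered samples were -0.36, -0.52 and -0.11 for numbers 1, 2 and 3, and nothing in the labels pairs them. Same-numbered samples never shared an array, whereas all other samples did. In this design the error of the fit alone makes their correlations lower than those of other pairs. These values therefore cannot show whether the numbers pair the samples. The largest correlations between a menopausal and a control sample were 0.48 for Menopausal 2 with Control 1 and 0.34 for Menopausal 1 with Control 2. The first pair had the lowest ribosomal medians and the second pair the highest. The part of this in the ribosomal order of the samples was not tested.

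The spot layout, and with it every gene name, was derived earlier from these data, and the members, lists and tests were chosen with earlier results of these data known. Rules set which genes were named. They were the 10 probes of smallest p in each direction, genes with a set role and examples of disagreeing probes. The brightest and dimmest genes were also named, most of them without values. Of each other list the 2 genes of smallest p were to be named, but for several marker lists no gene is named here. Others were named after their values were seen. Start sites and their sequences are those of RefSeq. The fit was tested on simulated data with planted differences larger than any ribosomal one here. The simulation therefore does not show whether differences of the size reported here would be found. The alternatives tried were other normalizations, background corrections, filters, blocks, replicates, probe choices, left-out samples and the value table.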

Additional observations from a re-analysis of the deposited data

How the results depend on the processing

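No ribosomal protein probe was called between the groups under any of the 20 alternatives, and the smallest adjusted p of a member over them was 0.471, with arrays taken as replicates, where 5 other probes were called. The ribosomal median difference of 0.055 lay between 0.020 (no background subtraction) and 0.15 (median centring) under the other settings of the scanner data, was 0.043 with global loess, and had its sign turned to -0.077 in the value table under its own labels, whose columns match other arrays and whose direction is not settled. It changed sign without Control 3 (-0.0094) and without Menopausal 1 (-0.0063), and was 0.15 without Control 2, so the range over left-out samples was -0.0094 to 0.15. The share of members higher in menopausal samples ran from 47.8% without Control 3 or without Menopausal 1 to 94.4% without Control 2, and was 79.5% with median centring and 18.6% in the value table. The 7 members with an unadjusted p under 0.05 in the higher direction became 1 with the replicate block or with scaling between arrays and 23 with arrays as replicates. The sample number as a replicate block left the median at 0.055 with 0 probes called, and nothing in the labels pairs the samples by number. Rps6, Rpl3, Rpl5, Rpl4, Rpsa, Rps3 and Rps9 stayed higher in menopausal samples without each sample in turn, but without Menopausal 3 Rpl3 was 0.068, Rpl5 0.17, Rpl4 0.10, Rpsa 0.14, Rps3 0.046 and Rps9 0.17, and Rpl5 was 0.24 without Control 2. Rps21 was -0.0059 without Control 2 and -0.027 without Menopausal 3, Rps2 turned to -0.042 without Menopausal 3, Rplp1 to -0.017 without Control 3, Rpl17 to -0.023 without Menopausal 1, and without Control 2 Rpl37a turned to 0.13, Rps15 to 0.12, Rps20 to 0.12 and Rps29 to 0.12; Rpl37a, Rps15 and Rps20 were also above 0 without Menopausal 3 (0.0037, 0.033 and 0.076). Menopausal 2 stayed the lowest menopausal sample for 69.6% to 89.4% of members and Control 2 the highest control sample for 52.2% to 80.6% under the alternatives on the scanner data that keep all samples. The member medians changed most with median centring. They were then 0.055, -0.20 and 0.38 in Menopausal 1, 2 and 3, against -0.22, 0.0016 and -0.016 in Control 1, 2 and 3. Menopausal 3 was then the highest sample, and Control 2 lay near 0. The 83 calls among control samples became 29 without background subtraction, 46 without a filter and 128 with scaling between arrays, and 0 to 99 without 1 sample. The 29 calls among menopausal samples became 15 with global loess, 91 with median centring, 0 without background subtraction, 13 without a filter, 12 with plain subtraction, 0 with scaling and 19 with spot means, and 0 to 21 without 1 sample; with median centring 1 of them was a member, an Rpl23 probe (adjusted p = 0.036, against 0.31 in the main analysis, by limma) that read -0.14, -0.068 and 0.28 in Menopausal 1, 2 and 3. The causes of these changes were not tested.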
